A study of Mus musculus with 2 samples.

Results

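The autophagy and mitophagy genes are 43 genes of the deposited FPKM table, taken by their symbol from a list that runs from the kinases starting autophagy to the lysosomal membrane, out of 28839 genes in all. Their RNA was measured in mESCs of the Sv129 line, which are mouse embryonic stem cells, cultured with folate at 4 mg/L (FA4, the control) or at 0 mg/L (FA0, folate deficiency), with 1 library per condition. Both groups came from 1 line with no stated genetic change, split after thawing and kept in serum-containing medium with leukemia inhibitory factor. How long the cells stayed in each medium before RNA was taken was not given in the sources used here, nor was the number of cultures. Since each group is a single library, the differences below have no replicate check and carry no p-value.

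Autophagy encloses cytoplasm in a double membrane, the autophagosome, which fuses with the lysosome so that the contents are degraded. The ULK1 kinase complex, which mTORC1 holds inactive when nutrients are plentiful, starts the process. A phosphatidylinositol 3-kinase complex then marks the membrane, ATG9 and ATG2 supply its lipid, and ubiquitin-like conjugation reactions attach proteins of the ATG8 family (LC3 and GABARAP) to it. Cargo receptors bind ATG8 proteins, and mitophagy is the same process directed at mitochondria. The transcription factors TFEB and TFE3 switch on genes of autophagy and lysosomes, many of which carry an E-box with the core CACGTG in their promoter.

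Promoters of 250 bases before to 50 bases after the gene start (RefSeq, GRCm38.p6) were found for 36 of the 43 genes, 43 promoters in all since 6 genes have more than 1 start. A gene was counted where any of its promoters held the letters. The letters CACGTG, a palindrome that reads the same on both strands, stood in 5 of the 36 genes, Atg3, Atg5, Atg7, Atg14 and Lamp1. The RefSeq start lies inside the gene of the deposited table for Atg7 (by 27999 bases) and Atg14 (by 2215 bases), so their windows are not at the start given in the table, while those of Atg3, Atg5 and Lamp1 lie within 44 bases of it. This is 13.9% of the 36, beside 8.09% of all genes with a promoter and 12.0% of those reaching 1 FPKM in FA4 or FA0. The longer letters TCACGTGA, which contain CACGTG and are read here as the core of the CLEAR motif of lysosomal genes, stood only in Atg3 among the 36, that is 2.78%, beside 2.23% of expressed genes. Of the 6 genes of the ATG12 and ATG8 conjugation reactions 4 had a promoter. Of these 4, 3 held CACGTG, Atg7 at its internal start, while 0 of the 4 ATG8 family promoters held it. The sites are shown for the promoters with the most of them (Lamp1 and Atg3) and for Atg5 and Atg7, with CACGTG in capitals.
Lamp1 (chr8:13159081-13159160, + strand): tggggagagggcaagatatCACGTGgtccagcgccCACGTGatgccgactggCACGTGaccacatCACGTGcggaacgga
Atg3 (chr16:45158719-45158778, + strand): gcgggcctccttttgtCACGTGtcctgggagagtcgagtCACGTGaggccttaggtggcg
Atg5 (chr10:44268289-44268338, + strand): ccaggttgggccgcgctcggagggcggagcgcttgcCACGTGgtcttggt
Atg7 (chr6:114670936-114670995, + strand): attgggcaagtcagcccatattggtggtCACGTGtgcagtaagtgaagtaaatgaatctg

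Counted from the RefSeq start, the 4 sites of Lamp1 began 61, 45, 28 and 15 bases before it, those of Atg3 94 and 71 bases, that of Atg5 14 bases and that of Atg7 132 bases. The Atg14 site began 1 base before the start. The 43 promoters of these genes had a median GC content of 59.3% and a median of 19 CG dinucleotides, the sites of DNA methylation. Over all 32851 promoters the medians were 52.7% and 7. That set includes genes not expressed in these cells, and the medians for expressed genes alone were not calculated. Whether these promoters differ from those of other expressed genes was therefore not tested. The 120 bases before the start are printed for the genes with the highest and the lowest change of the 43, Ulk1 and Gabarapl2, with each CG in capitals. They hold 13 CG in Ulk1 and 10 in Gabarapl2. A match of letters is a description of the sequence only, and methylation was not analysed here.
Ulk1 (chr5:110810082-110810201, - strand): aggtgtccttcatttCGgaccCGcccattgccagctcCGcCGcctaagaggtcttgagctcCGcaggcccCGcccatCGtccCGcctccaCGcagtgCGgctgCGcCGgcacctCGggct
Gabarapl2 (chr8:111940583-111940702, + strand): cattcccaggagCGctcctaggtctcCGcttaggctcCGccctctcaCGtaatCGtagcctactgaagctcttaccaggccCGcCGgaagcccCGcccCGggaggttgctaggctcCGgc

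The reads recovered from FPKM and exon length summed to 19534452 in FA4 and 18367760 in FA0, with 67 to 11699 reads on single autophagy genes in FA4 and 64 to 8809 in FA0. All 10 pluripotency markers were expressed, summing to 3212 FPKM in FA4 and 2488 FPKM in FA0. Of the 10, 9 were lower in FA0 beyond counting error, beside 25.9% of all expressed genes. The other marker, Tfcp2l1, was higher, with 40.2 FPKM in FA4 and 70.5 FPKM in FA0. All 10 lie in the highest decile of mean FPKM, where the median change, as defined below, was -0.13. The 7 fibroblast markers in the table summed to 6.48 FPKM in FA4 and 6.80 FPKM in FA0. Of these sums, Thy1 held 4.21 and 4.53 and Pdgfrb 2.02 and 1.86. Col1a1 had 0.20 and 0.30. Col3a1, Lum and Postn were listed at 0 in FA4, and Postn had 0.06 in FA0. The primitive endoderm markers summed to 7.25 in FA4 and 3.94 in FA0 and the mesoderm markers to 4.33 and 5.40. The neuroectoderm markers summed to 2.34 and 2.83 and the trophoblast markers to 18.01 and 16.9. Of the trophoblast sums, Tfap2c alone held 16.3 in FA4 and 15.6 in FA0. Gata3 had 1.34 and 1.19, and Cdx2, Elf5 and Krt7 had at most 0.19 in either library. The part of the marker differences in the values of the autophagy genes was not tested. In bulk RNA, fewer cells of a type and less RNA per cell cannot be told apart.

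Most autophagy genes had nearly equal levels in both libraries, while the ATG8 family was lower in FA0 beyond counting error in each of its 5 genes, and the genes of the kinase Ulk1, the lipid transfer protein Atg2a and the factors Tfeb and Tfe3 were higher. The change of a gene is log2((FPKM in FA0 + 1)/(FPKM in FA4 + 1)), which understates the change of low genes, and it was read for genes that reached 1 FPKM in FA4 or FA0, called expressed, 42 of the 43. Of these 42, 4 were at least 1.5-fold higher in FA0 (10.2% of all expressed genes were) and 1, Gabarapl2, was at least 1.5-fold lower (4.5% of all). At 2-fold, 0 were higher and 0 lower, beside 2.99% and 1.32% of all expressed genes. The other 37 lay within 1.5-fold. The share of higher genes was 9.52% and that of lower genes 2.38%. The share of higher genes over all expressed genes depended on the pseudocount and the scaling: it was 15.2% with a pseudocount of 0.1, 15.6% without one and 16.3% after rescaling to TPM, while the autophagy genes stayed at 4 of 42. The median change was -0.01, beside 0.05 over all expressed genes, and the summed FPKM of the 43 genes was 957 in FA4 and 879 in FA0. The 95% counting interval of the FPKM ratio, which covers counting error of the reads and not the spread between cultures, lay above equal levels in 12 of the 42 (34.4% of all genes), below them in 11 (25.9% of all) and included them in 19.

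**Figure D1:**
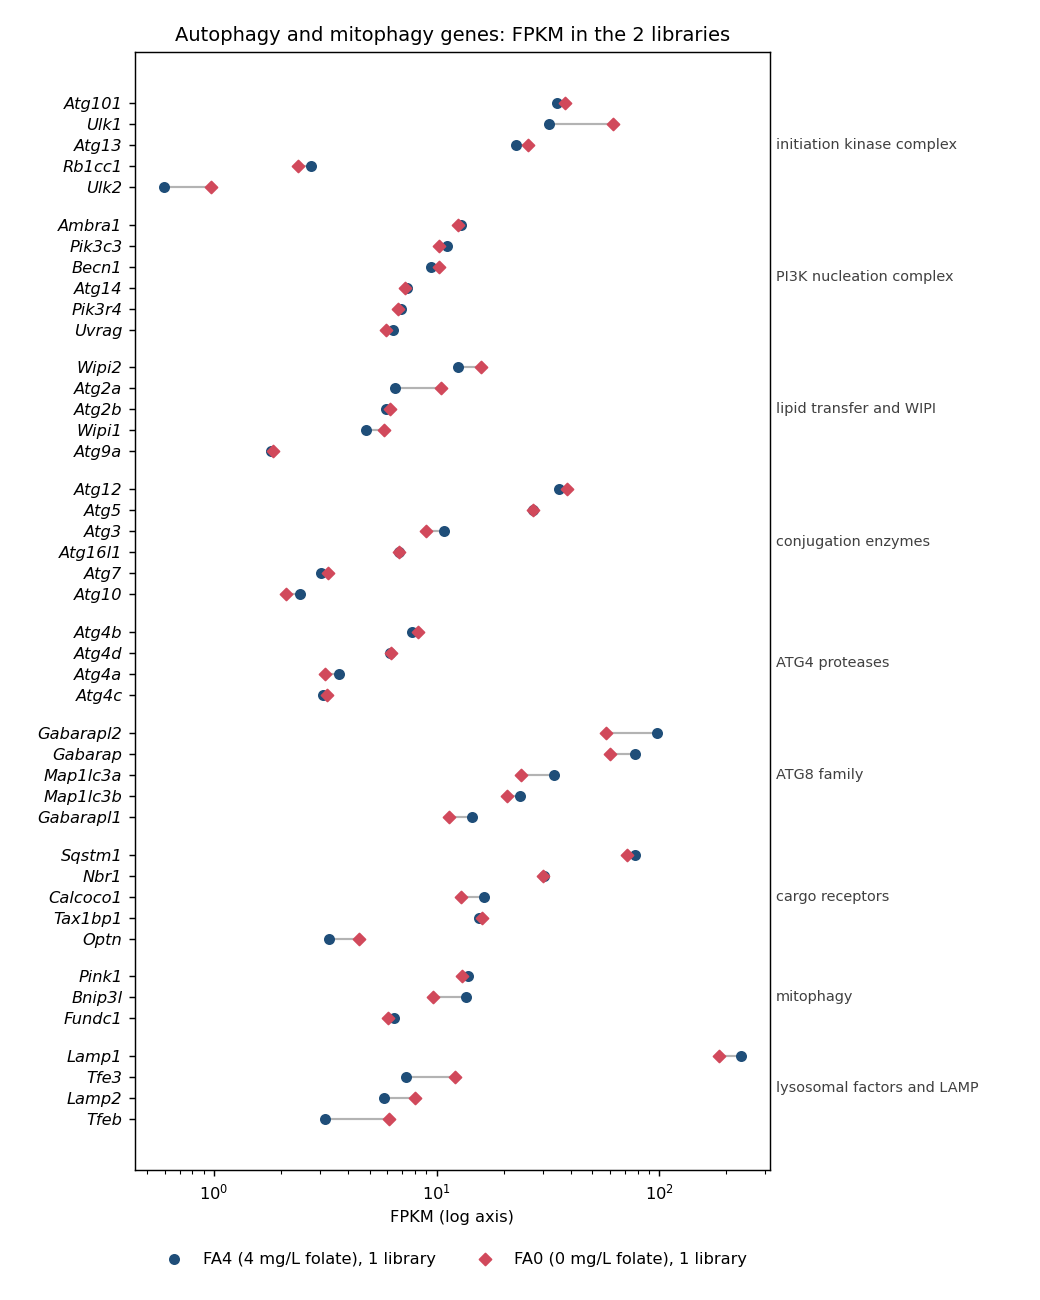
FPKM (log axis) of the 43 autophagy and mitophagy genes in the FA4 library (circles) and the FA0 library (diamonds), grouped by role. Most pairs lie close together, Ulk1, Atg2a, Tfeb and Tfe3 are further right in FA0, and all 5 genes of the ATG8 family are further left.

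In the initiation complex, Ulk1, the kinase that starts autophagosome formation (ENSMUSG00000029512, chr5:110784488-110810097 in mm10), had 31.9 FPKM in FA4 and 62.2 FPKM in FA0, from 3889 and 7146 reads. The ratio of 1.95 (95% counting interval 1.88 to 2.03) was the highest of the 43 genes, and the change was 0.94. Its paralogue Ulk2 was nearly silent, with 0.60 FPKM in FA4 and 0.97 FPKM in FA0 on 67 and 103 reads, a ratio of 1.63 (1.19 to 2.26), and it did not reach the minimum. Ulk1 held 98.2% of the ULK FPKM in FA4 and 98.5% in FA0, so the summed level of the pair followed it, from 32.5 to 63.2. The subunits that join the kinase did not show a difference of this size. Atg13, a regulatory subunit, had 22.6 FPKM in FA4 and 25.7 FPKM in FA0, and Atg101, which stabilises ATG13, had 34.6 and 37.9. Rb1cc1, which encodes the scaffold FIP200, had 2.74 FPKM in FA4 and 2.38 FPKM in FA0, a ratio of 0.87 (0.78 to 0.97). Of the 3 partners, 2 lay slightly above equal levels and 1 below, all within 1.5-fold.

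The class III phosphatidylinositol 3-kinase complex, which makes the lipid that marks the growing membrane, was level between the libraries. Becn1, which encodes its scaffold Beclin 1, had 9.40 FPKM in FA4 and 10.2 FPKM in FA0 on 1249 and 1277 reads, a ratio of 1.09 (1.004 to 1.18). Exons of Cntd1 on the opposite strand cover 43.9% of the exon bases of Becn1, and the sources used here do not say whether the counting used strand. The level of Cntd1 was 0.91 FPKM in FA4 and 0.52 FPKM in FA0. The other 5 genes lay between a change of -0.11 and -0.03, and the counting interval of each included equal levels. They are the kinase Pik3c3 with 11.1 FPKM in FA4 and 10.2 FPKM in FA0, its regulatory subunit Pik3r4 with 6.90 and 6.69, Atg14, which directs the complex to autophagy, with 7.38 and 7.21, Uvrag, which directs it to endosomes, with 6.34 and 5.95, and the Beclin 1 regulator Ambra1 with 12.9 and 12.5. Part of the Uvrag sequence, over stretches of at least 250 bases, is shared at 95.03% to 96.2% identity with 8 other genes of the table, so its reads are uncertain. These stretches each span 5.12% to 6.69% of the Uvrag transcript. Many more genes share such a stretch at lower identity, such as Trim24 at 94.2%.

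All 5 genes of the lipid transfer and WIPI group had a change above 0, beside a median of 0.05 over all expressed genes. Of the 5, 3 lay above equal levels beyond counting error, as did 34.4% of all expressed genes. Less the median change of genes of like level, length or GC content, Atg2b and Atg9a were below 0 in each case. Atg2a, which encodes a lipid transfer protein between the endoplasmic reticulum and the new membrane (ENSMUSG00000024773, chr19:6241668-6262335), had 6.49 FPKM in FA4 and 10.4 FPKM in FA0 on 939 and 1420 reads. The ratio was 1.61 with a counting interval of 1.48 to 1.75, which reaches just under 1.5. Its paralogue Atg2b had nearly equal levels, with 5.95 FPKM in FA4 and 6.15 FPKM in FA0, so the share of Atg2a in the ATG2 FPKM was 52.2% in FA4 and 62.9% in FA0. Wipi2, a lipid-binding protein that recruits the conjugation machinery, had 12.5 FPKM in FA4 and 15.9 FPKM in FA0 on 2485 and 2960 reads, a ratio of 1.27 (1.199 to 1.34). Wipi1, of the same family, had 4.799 and 5.83, a ratio of 1.21 (1.06 to 1.39). Atg9a, the membrane-spanning lipid scramblase of the pathway, was the lowest of the group, with 1.81 FPKM in FA4 and 1.84 FPKM in FA0 on 196 and 188 reads, a ratio of 1.02 (0.83 to 1.251). Atg9a shares 31.8% of its exon bases with Gm29253 on the same strand, so its low level is uncertain.

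**Figure D2:**
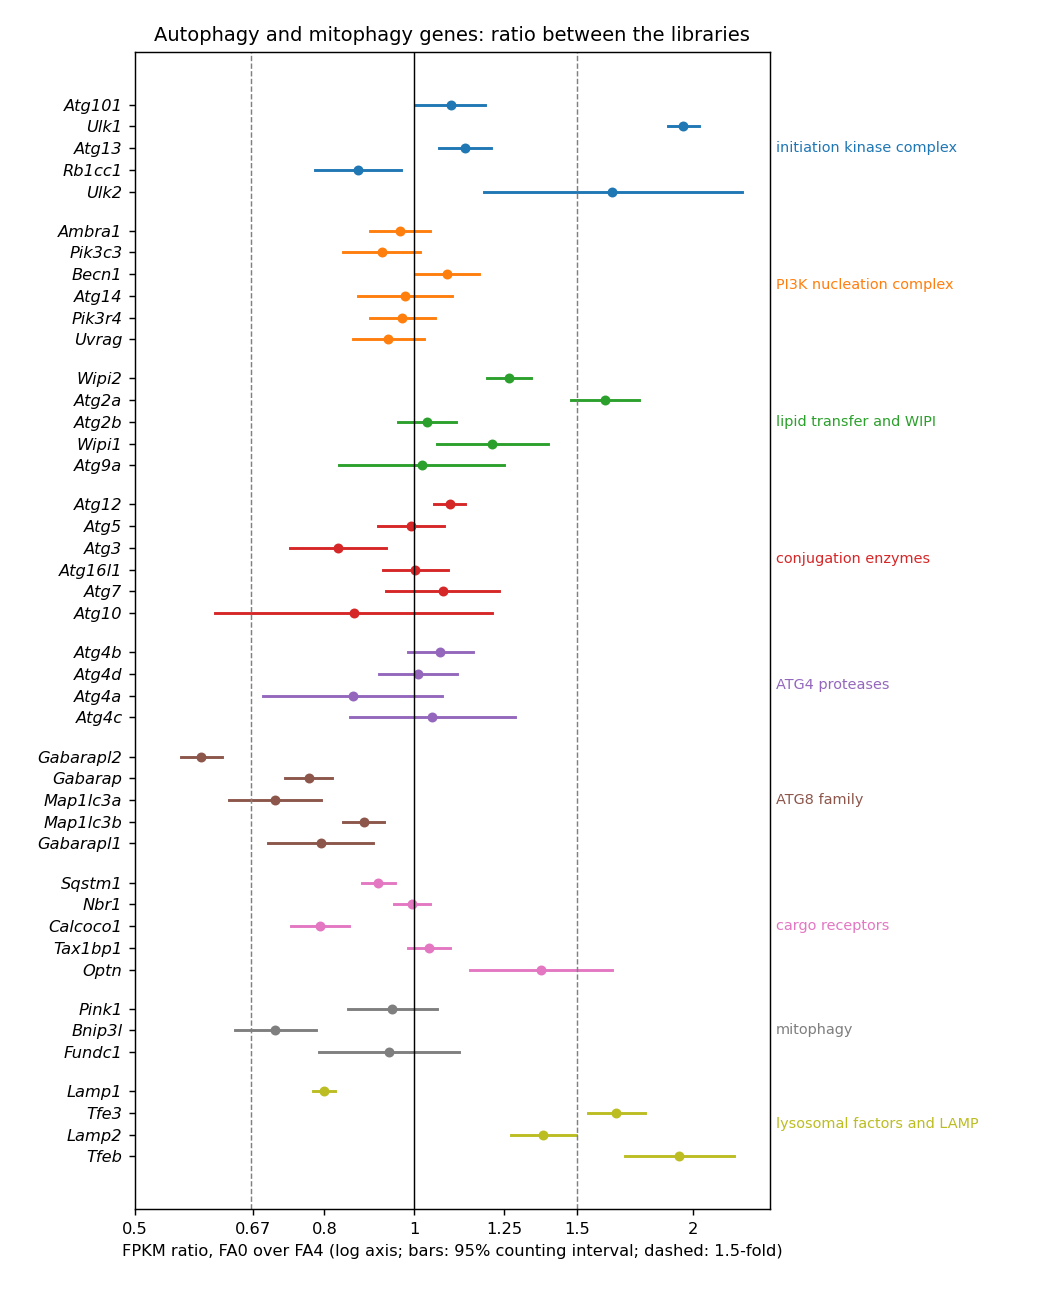
FPKM ratio of FA0 over FA4 (log axis) for the 43 genes, grouped by role, with bars for the 95% counting interval and dashed lines at 1.5-fold. The bars of all 5 ATG8 family genes end below 1, and those of Ulk1, Tfeb and Tfe3 lie wholly above 1.5.

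The genes of the reactions that couple ATG12 to ATG5 and the ATG8 proteins to lipid stayed near equal levels. Atg5, the acceptor of ATG12, had 27.2 FPKM in FA4 and 26.99 FPKM in FA0 on 1204 and 1124 reads, a ratio of 0.99 (0.91 to 1.077). Atg7, the E1-like enzyme of both conjugation reactions, had 3.03 and 3.25 on 397 and 401 reads, a ratio of 1.07 (0.93 to 1.24). Atg16l1, which completes the ligase complex, had 6.76 FPKM in FA4 and 6.78 FPKM in FA0. These 3 genes, with Atg10, had counting intervals that included equal levels. Atg10, the E2-like enzyme for ATG12, rested on 79 reads in FA4 and 64 in FA0, with an FPKM of 2.45 and 2.104. The other 2 genes differed in opposite directions. Atg12 had 35.4 FPKM in FA4 and 38.7 FPKM in FA0, a ratio of 1.09 (1.05 to 1.14). Atg3, the E2-like enzyme that hands ATG8 proteins to lipid, had 10.8 and 8.94, a ratio of 0.83 (0.74 to 0.93). Atg3 is also the gene with 2 CACGTG sites in its promoter.

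The 4 ATG4 proteases, which trim ATG8 proteins before conjugation and release them again, summed to 20.7 FPKM in FA4 and 20.9 FPKM in FA0. Atg4b, the most abundant of the 4, had 7.73 FPKM in FA4 and 8.24 FPKM in FA0 on 1203 and 1208 reads, a ratio of 1.07 (0.98 to 1.16). Atg4d had 6.20 and 6.26, Atg4a had 3.66 and 3.14, and Atg4c had 3.08 and 3.22. The counting interval of each of the 4 included equal levels, and the order of the 2 lowest genes was not the same in both libraries. Atg4a has a near-identical copy, Atg4a-ps, and shares a stretch with Syt6, but these 2 held only 5 reads in FA4 and 2 in FA0. Exons of Kri1 on the opposite strand cover 19.3% of the exon bases of Atg4d. Kri1 had 7.92 FPKM in FA4 and 9.95 FPKM in FA0, so the level of Atg4d is uncertain while the strand handling is not known.

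The ATG8 family, the proteins set into the autophagosome membrane, was lower in FA0 in all 5 genes. Each counting interval lay below equal levels, as did that of 25.9% of all expressed genes. The summed FPKM of the family was 247 in FA4 and 173 in FA0, 1.42-fold lower, and the median change was -0.37. Gabarapl2 (ENSMUSG00000031950, chr8:111940703-111953612), the most abundant gene of the family in FA4, had 97.4 FPKM in FA4 and 57.4 FPKM in FA0 on 4259 and 2363 reads. The ratio was 0.59 (95% counting interval 0.56 to 0.62), that is 1.70-fold lower, and the change of -0.75 was the lowest of the 43 genes. Gabarap had 77.9 and 59.9 on 2700 and 1955 reads, a ratio of 0.77 (0.73 to 0.82), and was the most abundant gene of the family in FA0. Gabarapl1, the lowest of the family in both libraries, had 14.4 and 11.4 on 545 and 407 reads, a ratio of 0.79 (0.70 to 0.90). Gabarapl2 thus held 39.5% of the family FPKM in FA4 and 33.1% in FA0, and the share of Gabarap was 31.5% and 34.5%.

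The 2 LC3 genes were also lower in FA0. Map1lc3a had 33.6 FPKM in FA4 and 23.8 FPKM in FA0 on 747 and 498 reads, a ratio of 0.71 (0.63 to 0.79). Map1lc3b, whose protein is the usual marker of autophagosomes, had 23.6 and 20.8 on 3336 and 2770 reads, a ratio of 0.88 (0.84 to 0.93), the smallest difference of the family. The ratio was 0.68 for the 3 GABARAP genes together and 0.78 for the 2 LC3 genes together. Copies elsewhere in the genome could take reads from 2 of the 5 genes. For Gabarapl2 the copies Gm3724 and Gm6051 held 16 reads in FA4 and 29 in FA0, and with them added the ratio was 0.59 (0.57 to 0.63). For Map1lc3b the 3 copies held 229 and 161 reads, and with them added the ratio was 0.87 (0.83 to 0.92). Exons of 1700101I11Rik on the opposite strand cover 28.3% of the exon bases of Gabarapl1. The level of 1700101I11Rik was 0.03 FPKM in FA4 and 0 FPKM in FA0.

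The cargo receptors, which link ubiquitin-marked or other cargo to ATG8 proteins, had no common direction. Sqstm1, which encodes p62 and was the most abundant of them, had 78.1 FPKM in FA4 and 71.5 FPKM in FA0 on 4929 and 4246 reads, a ratio of 0.92 (0.88 to 0.95). Nbr1, a receptor of related domain structure, had 30.2 and 30.1, and Tax1bp1 had 15.4 and 15.999, both with intervals that included equal levels. Calcoco1, a receptor for the endoplasmic reticulum, had 16.3 FPKM in FA4 and 12.9 FPKM in FA0 on 1754 and 1307 reads, a ratio of 0.79 (0.74 to 0.85). Optn, which encodes the receptor optineurin, had 3.27 and 4.48 on 231 and 298 reads, a ratio of 1.37 (1.15 to 1.63), and was the least abundant of the 5. The receptor with the highest level and the 1 with the lowest level therefore lay on opposite sides of equal levels, and all 5 were within 1.5-fold. Less the median change of genes of like level, Sqstm1 was at 0.004, of like length at -0.13 and of like GC content at -0.18. Optn was at 0.27, 0.32 and 0.30.

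Among the mitophagy genes, Bnip3l, which encodes the receptor NIX on the outer mitochondrial membrane (ENSMUSG00000022051, chr14:66985239-67008877), had 13.5 FPKM in FA4 and 9.59 FPKM in FA0 on 982 and 655 reads. The ratio was 0.71 (0.64 to 0.78), and 0.71 also with the reads of its copy Bnip3l-ps added, 52 in FA4 and 37 in FA0. Its paralogue Bnip3, which is not among the 43 genes, had 33.2 FPKM in FA4 and 13.7 FPKM in FA0, with a change of -1.22. The BNIP3 pair summed to 46.8 in FA4 and 23.3 in FA0, 2.01-fold lower, and the share of Bnip3l was 28.9% and 41.2%. The kinase Pink1, which marks damaged mitochondria together with Parkin, had 13.8 FPKM in FA4 and 13.04 FPKM in FA0 on 692 and 617 reads, a ratio of 0.95 (0.85 to 1.06). Fundc1, another receptor of the outer membrane, had 6.42 and 6.03, a ratio of 0.94 (0.79 to 1.12). The difference beyond counting error among these 3 genes was thus that of Bnip3l.

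Tfeb and Tfe3, the factors that switch on autophagy and lysosome genes, were both more than 1.5-fold higher in FA0. Tfeb (ENSMUSG00000023990, chr17:47737030-47792419) had 3.16 FPKM in FA4 and 6.11 FPKM in FA0 on 337 and 613 reads, a ratio of 1.93 (1.69 to 2.21) and a change of 0.77. Tfe3 (ENSMUSG00000000134, chrX:7762560-7775202) had 7.31 and 12.1 on 1273 and 1979 reads, a ratio of 1.65 (1.54 to 1.77) and a change of 0.65. Mitf, the third expressed factor of this family and not among the 43 genes, had 8.92 and 18.1, a ratio of 2.03 (1.88 to 2.19). The MiT/TFE factors together had 19.4 FPKM in FA4 and 36.3 FPKM in FA0, a ratio of 1.87, and the share of each expressed factor moved by less than 5 percentage points. The fourth gene, Tfec, was listed at 0.02 FPKM in FA4 and 0 FPKM in FA0.

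The lysosomal membrane proteins differed from each other. Lamp1, with 4 CACGTG sites in its promoter, was the most abundant of the 43 genes, with 233 FPKM in FA4 and 186 FPKM in FA0 on 11699 and 8809 reads, a ratio of 0.80 (0.78 to 0.82). Lamp2, whose A isoform serves chaperone-mediated autophagy, had 5.79 and 7.98 on 1040 and 1350 reads, a ratio of 1.38 (1.27 to 1.496). Lamp2 held 2.43% of the LAMP FPKM in FA4 and 4.12% in FA0. The 4 genes with a CACGTG site beside Lamp1 (Atg3, Atg5, Atg7 and Atg14) had changes of -0.25, -0.01, 0.08 and -0.03. All 5 thus lay within 1.5-fold, as did 37 of the 42 expressed autophagy genes. The promoters of Tfeb, Tfe3, Ulk1 and Atg2a, the 4 genes past 1.5-fold on the higher side, did not hold these letters in the window read. Only 5 of the 36 autophagy genes with a promoter held them, and a link between the letters and the change was not tested.

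**Figure D3:**
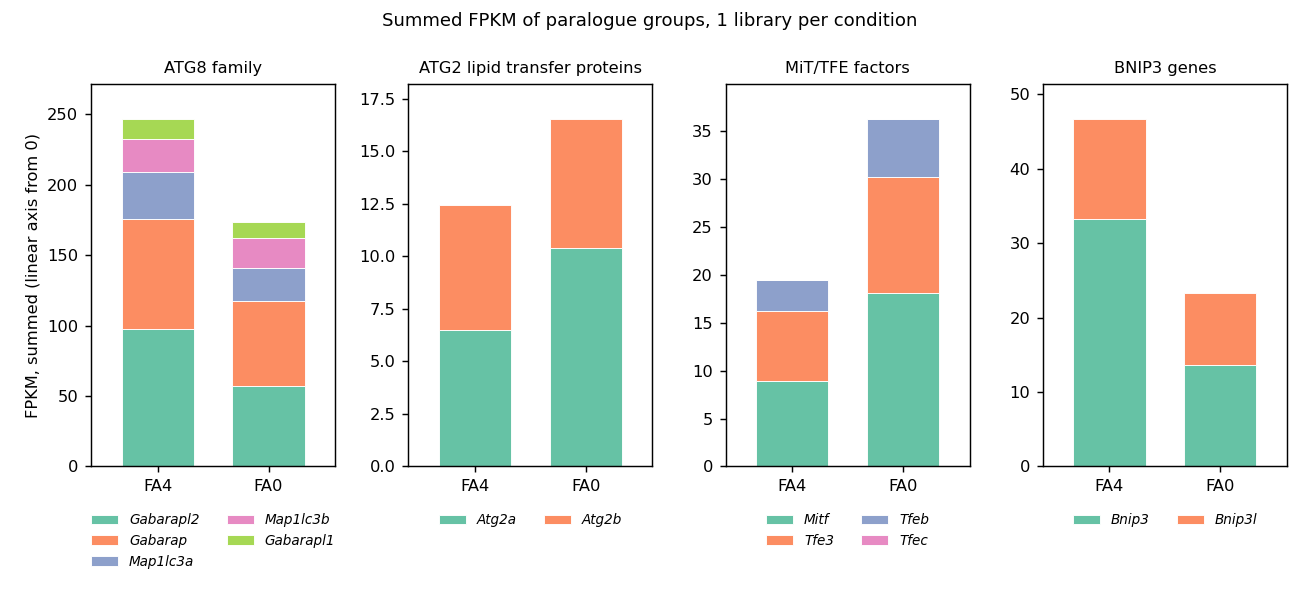
Summed FPKM (linear axis from 0) of the ATG8 family, the ATG2 genes, the MiT/TFE factors and the BNIP3 genes in FA4 and FA0, 1 library each, with each gene as a segment. The ATG8 sum is 247 in FA4 and 173 in FA0, the MiT/TFE sum 19.4 and 36.3, and the BNIP3 sum 46.8 and 23.3.

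The rest of the pathway was read from 9 lists with 142 other genes, of which 141 were in the table and 136 passed the minimum. Fold limits in these lists refer to the change, with 1 added to each FPKM. Of the 136, 5 were at least 1.5-fold higher (3.68%) and 2 lower (1.47%), both below the shares over all expressed genes, and the median change was -0.02. The genes named are among the 4 with the largest change in each list. Among 10 other core autophagy genes, 1 was higher and the median change was -0.10. This gene was Tecpr1, a tether of autophagosome and lysosome, with 1.81 FPKM in FA4 and 3.88 FPKM in FA0. Zfyve1, a marker of the membrane where autophagosomes form, had 10.1 and 14.9. Atg16l2, a paralogue of Atg16l1, had 2.31 and 1.54, with a change of -0.38. The 13 genes of fusion with the lysosome lay within 1.5-fold, from Vamp8, a SNARE protein with 8.996 in FA4 and 6.94 in FA0, to Plekhm1, an adaptor of late endosomes with 8.27 and 12.2. Among 10 other receptors of selective autophagy, Wdfy3, a scaffold for protein aggregates, was higher with 3.66 FPKM in FA4 and 6.96 FPKM in FA0, while the median change was -0.07. Of 15 other mitophagy genes Bnip3 was at least 1.5-fold lower and the other 14 lay within 1.5-fold. In that list Fundc2, a paralogue of Fundc1, had 8.84 FPKM in FA4 and 6.49 FPKM in FA0, and Fkbp8, a receptor of the outer membrane, had 56.4 and 44.1.

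The lysosomal targets of TFEB had no common direction. Of 29 genes of the CLEAR network, 0 were at least 1.5-fold higher and 1 was lower, with a median change of 0.03. Beyond counting error, 10 of the 29 lay above equal levels (34.4% of all genes) and 12 below (25.9% of all). The lower gene was Ctsf, which encodes a lysosomal cathepsin, with 17.1 FPKM in FA4 and 10.9 FPKM in FA0. Ctsz, another cathepsin, had 59.9 and 40.4, and Gusb, the beta-glucuronidase, had 4.21 and 5.90. CACGTG stood in 11 of the 22 promoters found for this list. In a split made after the values were seen, the 11 genes with these letters had a median change of -0.20. The 11 without them had one of 0.11, and the ranges overlap, -0.61 to 0.24 and -0.56 to 0.41. The difference between these sets was not tested or adjusted for level, length or GC content, and it has no replicate check. The lysosomal proton pump, the V-ATPase, had 16 genes within 1.5-fold and a median change of -0.20. Of the 16, 10 lay below equal levels beyond counting error (25.9% of all genes) and 4 above (34.4% of all). Among them Atp6v1g1 had 86.6 FPKM in FA4 and 63.8 FPKM in FA0, and the subunit Atp6v0a2 had 7.07 and 10.4.

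Upstream of the ULK1 complex, 1 of 23 genes of mTORC1 and Rag signalling was at least 1.5-fold higher with 1 added to each FPKM. The median change was -0.05. The higher gene was Rragd, a Rag GTPase and known target of the MiT/TFE factors, with 3.56 FPKM in FA4 and 6.37 FPKM in FA0, a ratio of 1.79 (1.56 to 2.05). Deptor, an inhibitor of mTOR, had 4.03 and 6.07, Fnip2, a partner of folliculin, had 4.70 and 6.73, and Lamtor1, the lysosomal anchor of the complex, had 36.9 and 26.1. Without the added 1, Deptor was also past 1.5-fold. The 12 genes of AMPK and stress inputs had the highest median of these lists, 0.25, with 0 past 1.5-fold after adding 1 to each FPKM. Of the 12, 8 lay above equal levels beyond counting error and 1 below, beside 34.4% and 25.9% of all genes. Less the median change of genes of like level, length or GC content, the median of this list was 0.17, 0.17 and 0.19. Stk11, which encodes the AMPK kinase LKB1, had 27.8 FPKM in FA4 and 37.1 FPKM in FA0, Camkk2, another AMPK kinase, had 1.73 and 2.60, Prkag1, an AMPK subunit, had 7.75 and 10.4, and Sesn2, a leucine sensor induced by stress, had 76.4 and 98.1. Among 8 other transcription factors of autophagy, 2 were at least 1.5-fold higher, Mitf among them, and the median change was 0.10. Foxo1, an activator of autophagy genes, had 4.86 and 6.56, and Ddit3, which encodes the stress factor CHOP, had 28.6 and 20.4.

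**Figure D4:**
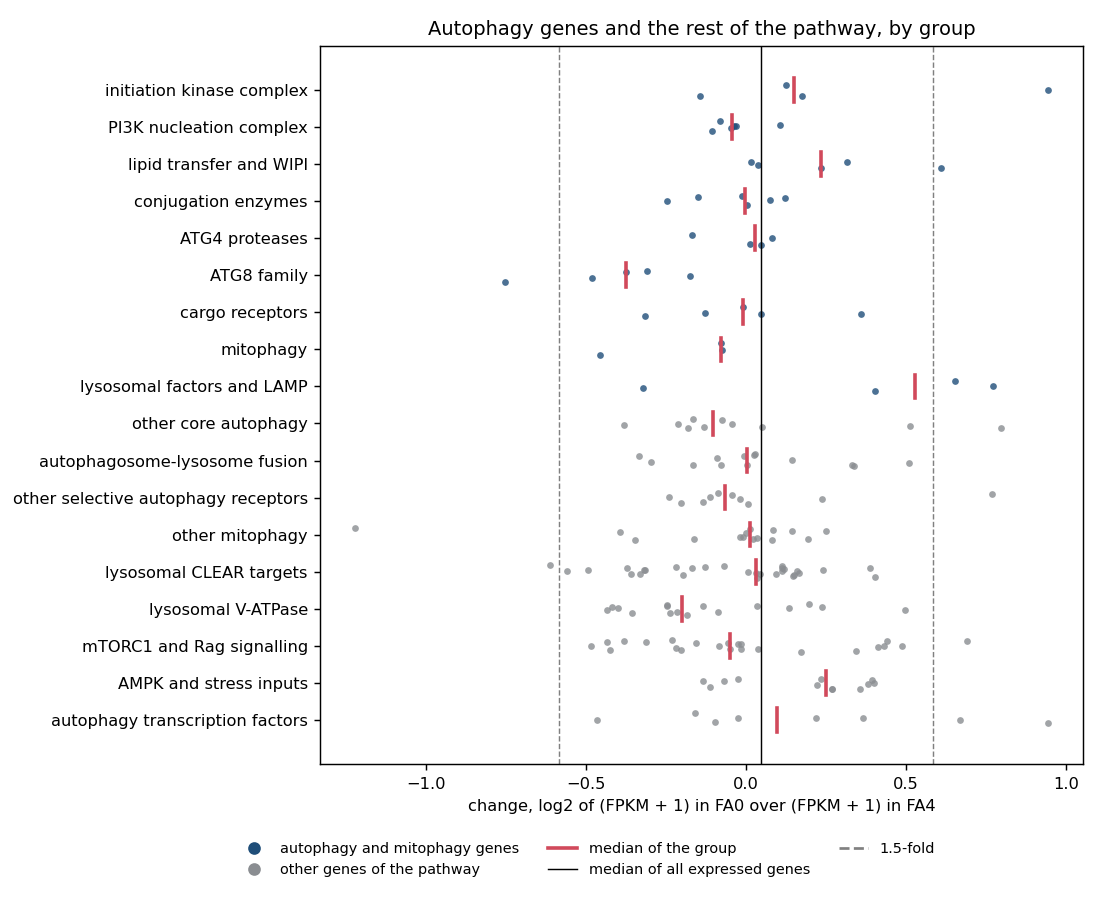
Change (log2 ratio of FA0 to FA4 after adding 1 to each FPKM) of each autophagy and mitophagy gene (blue) and each other gene of the pathway (grey), by group, with red lines for the group medians, dashed lines at 1.5-fold and the black line at the median of all expressed genes, 0.05. The ATG8 family lies wholly below 0 with a median of -0.37, and the AMPK and stress inputs have a median of 0.25.

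The change also varied with the level, the length and the GC content of a gene over all expressed genes. The median change went from 0.20 in the lowest decile of mean FPKM to -0.13 in the highest, and from -0.05 in the second decile of exon length to 0.13 in the longest. It was 0.15 in the highest decile of transcript GC content, which holds Ulk1, Atg2a, Tfeb, Map1lc3a and others, and at most 0.10 in the other deciles. The 4 genes past 1.5-fold on the higher side had 5669 to 9261 bases of merged exon, while 4 of the 5 ATG8 genes had 1181 to 2325 and Map1lc3b 7517. The median of the ATG8 family less the decile medians was -0.35 for level, -0.34 for length and -0.43 for GC content, and all 5 genes stayed below 0 in each case. Ulk1 less its decile median was 1.07 for level, 0.87 for length and 0.79 for GC content, and Gabarapl2 -0.62, -0.74 and -0.76. Less the decile median of length, Tfe3 was at 0.52 and Atg2a at 0.50, both under the 1.5-fold limit, as was Atg2a at 0.53 for level and 0.46 for GC content.

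**Figure D5:**
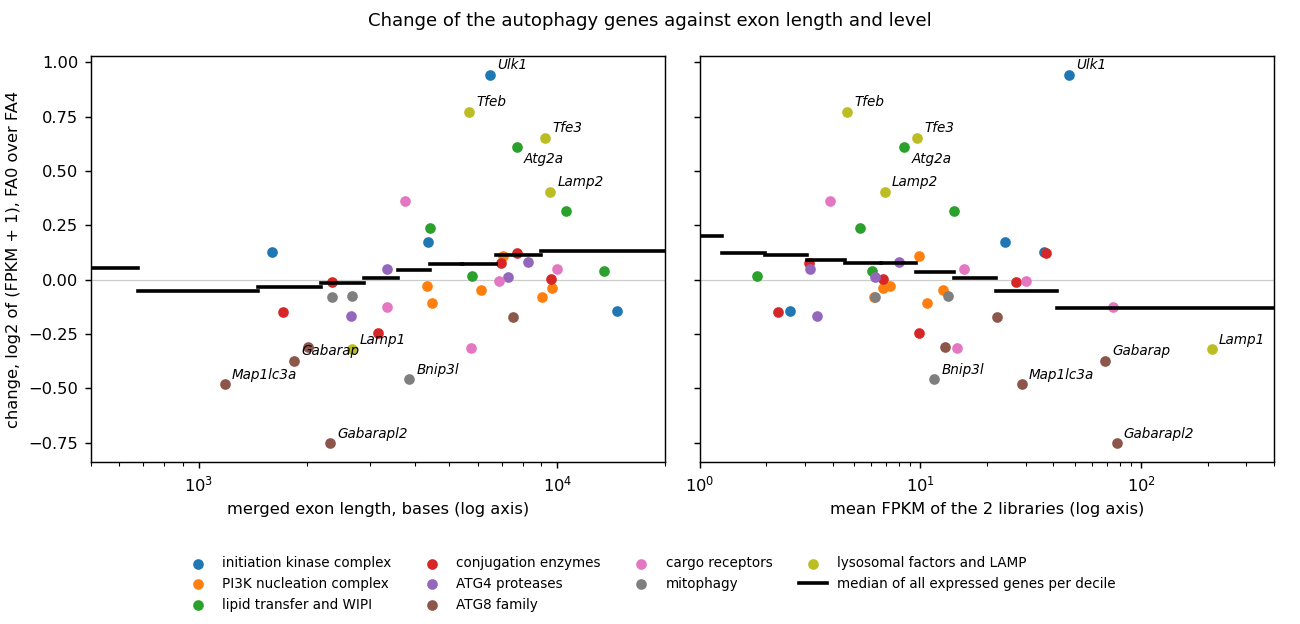
Change (log2 ratio of FA0 to FA4 after adding 1 to each FPKM) of the 42 expressed autophagy and mitophagy genes against merged exon length (left) and mean FPKM (right), both on log axes, with black steps for the median of all expressed genes in each decile. Ulk1 at 0.94 and Gabarapl2 at -0.75 lie far from the steps, which stay between -0.13 and 0.20.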

How the data were processed

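RNA-seq was performed on Sv129 mESCs with 4 mg/L (FA4) or 0 mg/L folate (FA0), 1 library each. The authors' reads were aligned to mm10, and the deposited values are FPKM of Ensembl genes, scaled to each library's own total. Tools in the submitters' processing notes are StringTie 1.3.3b, HISAT2 2.1.0 and DESeq 1.28.0, and the study's methods add Tophat and limma. In the sources used here, handling of strand and multi-mapped reads was not given.

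The change, log2((FPKM in FA0 + 1)/(FPKM in FA4 + 1)), was calculated for 14345 genes that reached 1 FPKM in FA4 or FA0. No test was possible with 1 library per condition. Reads were recovered from FPKM, the merged exon length in GENCODE M21 and a fitted scaling total (18807003 for FA4, 17704589 for FA0). Of values up to 20 reads, 97.9% and 98.1% lay within 0.05 of a whole number. Why the summed reads are above these totals was not tested. No exon length was found for 39 genes. Intervals are Clopper-Pearson at 95% and cover counting error only. The scripts were tested on simulated data. Copies were aligned stretches of at least 250 bases at 95% identity (BLAST 2.17.0). Python 3.11.15, pandas 2.3.3, numpy 2.4.6, scipy 1.17.1 and matplotlib 3.10.9 were used.

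The genes and lists were chosen with earlier results of these data known. Reads and intervals are given for genes with an FPKM ratio of at least 1.25 either way and an interval without equal levels, and for 13 defining genes of the steps. From each other list genes are named among the 4 with the largest change, of which some are not reported here. Alternatives were pseudocounts of 0.1 and 0.5, no minimum, a minimum of 5, rescaling by the median ratio of 7744 genes or to TPM, and the counting interval as limit. Chosen after seeing the data were the ratio without pseudocount and the change less the decile median of level, length or GC content. Other assays of the study were not analysed here.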

Additional observations from a re-analysis of the deposited data

How the results depend on the processing

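The 4 higher genes (Ulk1, Atg2a, Tfeb, Tfe3) and the 1 lower gene (Gabarapl2) were counted alike with pseudocounts of 0.1 and 0.5, no minimum, a minimum FPKM of 5, rescaling by the median ratio, TPM and the ratio without pseudocount. Over all genes these settings moved the share of higher genes between 6.16% (no minimum) and 16.3% (TPM), and that of lower genes between 2.72% (no minimum) and 7.12% (no pseudocount), so the comparison of the autophagy genes with all genes depends on them. Less the decile median of exon length the number of higher genes was 2, of level 3 and of GC content 3, and less that of GC content 2 genes were lower, Gabarapl2 and Map1lc3a; these 3 alternatives were chosen after seeing the data. Ulk1, Tfeb and Gabarapl2 were past 1.5-fold in 10 of 10 alternatives, Tfe3 in 9 and Atg2a in 7. With the counting interval as limit, 12 genes were higher and 11 lower. The median change of the autophagy genes was 0.070 after rescaling to TPM, where the median of all genes was 0.13, and -0.089 less the decile median of exon length. The median of the ATG8 family lay between -0.43 and -0.30 in all of these, with 5 of 5 genes below 0. The letters TCACGTGA in place of CACGTG were found in 1 promoter.

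No paired analysis was possible because each condition has 1 library. No library was left out for the same reason, and differences between cultures cannot be told apart from the effect of folate. Of the 43 genes Ulk2 and Atg10 rest on the fewest reads, and their intervals are the widest.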
